A study of Mus musculus with 6 samples.

Results

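The probes described here were the 1209 probes on a mouse lncRNA and mRNA array whose names are a cDNA or expressed sequence tag (EST) accession, 2.02% of the 59709 probes left once controls and negative probes were set aside. The rule that picks them reads the name alone, as 1 or 2 capital letters, 5 or 6 digits and a probe number. It uses no measured value, although this set was chosen with earlier results of these data known. RNA came from primary microglia of newborn (P0) C57BL/6 mice, shaken off mixed cerebral glial cultures. There were 3 arrays of resting microglia, left without stimulation for 24 h, and 3 arrays of microglia given 10 ng/ml interleukin-4 (IL-4) and collected at 24 h. The labels name no transgene or deletion in either group. The labels do not say whether the 3 samples of a group came from separate animals or cultures, so p-values measure only the spread between these samples, which may be technical.

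Before genomes were annotated, transcripts were known from cDNA clones and from ESTs, which are single reads from the end of a clone. Large mouse cDNA collections held many transcripts without a clear open reading frame, and arrays of long noncoding RNA (lncRNA) took probes from them. Microglia are the resident immune cells of the brain, and IL-4 is the cytokine used to induce their M2 state, which is tied to repair and to the damping of inflammation.

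Each of the 1209 probes carried its own accession and had 1 spot on the array, so no accession was read by a second of these probes, although several ESTs can come from the same transcript. Of these, 1034 had an EST prefix (32 prefixes in all), 93 the prefix AK, used for cDNAs submitted by Japanese sequencing projects, 16 the prefix BC, used for clones of the Mammalian Gene Collection, and 66 another prefix. None of the accessions (0 of 1209) matched a name or accession in the mouse gene table (GRCm38.p6), so no gene, position or exon is given, and whether a transcript is noncoding was not checked. The probes are therefore named by accession, and their transcripts' functions are not stated. The genes of 2 planned lists, 63 known lncRNA genes and 32 genes of IL-4 and polarization responses, could not be followed, since for 0 of them did the files or tables pair a probe with the gene. The same held for the 11 microglia markers and the 21 markers of astrocytes, oligodendrocytes, neurons, fibroblasts and vessels, so the labelled cell type was not checked. In bulk RNA of this kind, fewer cells of a type and less RNA per cell cannot be told apart.

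The arrays differed in background. Negative probes, placed to read background, had a median processed signal between 2.67 and 7.37 on 5 of the 6 arrays. On IL-4 array 2 it was 71.2, and there 67.7% of the negative spots carried the scanner's mark for a signal well above background. The mark was also uneven on the other arrays. It was on 9.58%, 3.5% and 11% of the negative spots of resting arrays 1, 2 and 3. For IL-4 arrays 1 and 3 the shares were 6.17% and 0.417%. That array shared its scan with the resting arrays, whereas IL-4 arrays 1 and 3 each had a scan of their own. The processed signal is a background-corrected intensity, and the number of arrays limits the precision.

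The first question was how many of the cDNA and EST transcripts gave a signal in microglia at all. Resting arrays 1, 2 and 3 gave 540, 338 and 560 of the 1209 probes well above background (44.7%, 28.0% and 46.3%). The counts were 385, 871 and 264 (31.8%, 72.0% and 21.8%) for IL-4 arrays 1, 2 and 3. IL-4 array 2 was the highest of the 6 and IL-4 array 3 the lowest, so the IL-4 range held the whole resting range. The mean share was 39.6% ± 10.2 (SD, n = 3) in resting microglia and 41.9% ± 26.6 (SD, n = 3) with IL-4, a difference of 2.26 percentage points that was smaller than the spread within either group (exact two-sided permutation test, p = 0.9, where 0.1 is the smallest p that 3 against 3 arrays allow). Without IL-4 array 2 the IL-4 mean was 26.8%. Against the 95th percentile of the negative probes on the same array, a limit that moves with the background, resting arrays gave 459, 378 and 446 probes, and IL-4 arrays gave 364, 234 and 425. By that limit IL-4 array 2 turned from the highest array to the lowest, at 19.4% of the probes.

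**Figure D1:**
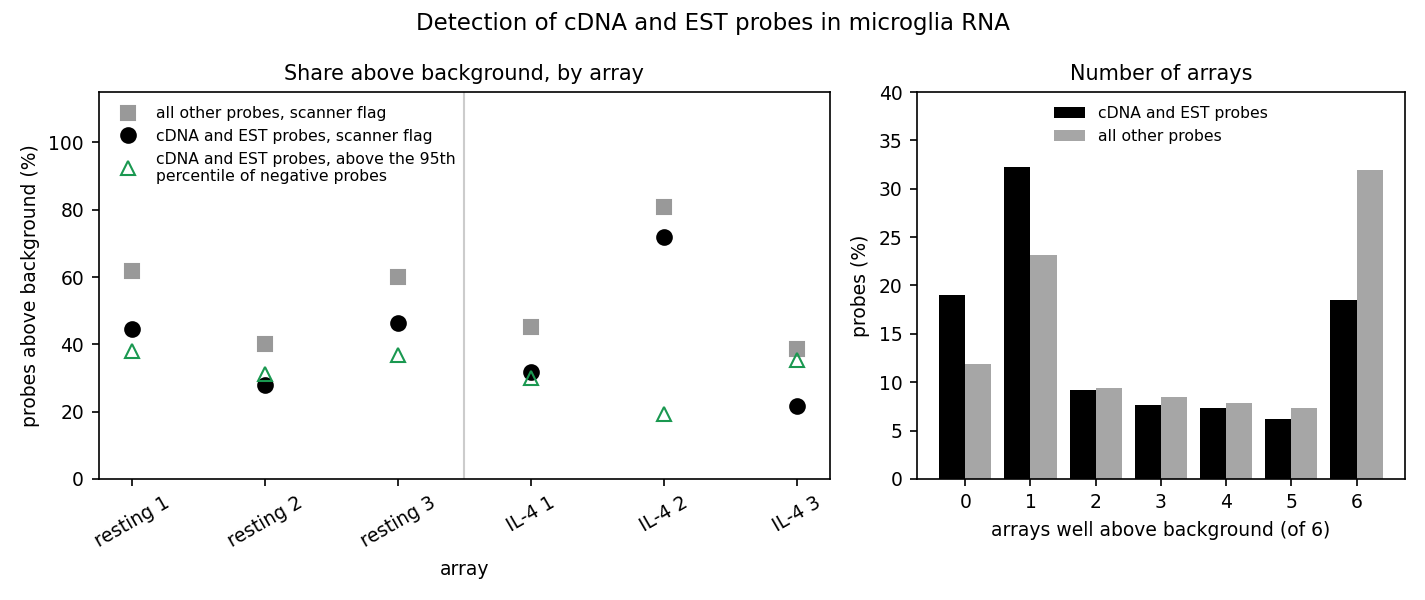
The left panel plots, for each of the 6 arrays, the percentage of the 1209 cDNA and EST probes (black circles) and of all other probes (grey squares) that the scanner marked well above background, and the percentage of cDNA and EST probes above the 95th percentile of the negative probes (open triangles); the circle for IL-4 array 2 stands at 72.0% and its triangle at 19.4%. The right panel plots the percentage of probes by the number of arrays, from 0 to 6, on which they were well above background, with 18.5% of the cDNA and EST probes and 31.9% of the other probes on all 6.

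The probes fell mainly at the ends of the range. Of the 1209 probes, 230 (19%) were well above background on no array, 389 (32.2%) on 1 array, and 224 (18.5%) on all 6. Among all other probes these shares were 11.9%, 23.2% and 31.9%. Of the 389 probes that passed on 1 array, 336 passed on IL-4 array 2. The cDNA and EST probes thus stood below the array's own series of numbered transcripts, of which 33.9% passed on all 6 arrays, near the lincRNA exon probes with 20.6% and the probes named CUST with 17.9%, and above the mouse and human lincRNA series with 9.41% and 7.89%. A further 81 probes outside the naming rule carried such an accession in their second name column, and 21 of them (25.9%) passed on all 6 arrays. These shares are descriptions, and no difference between probe series was tested.

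Detection on every array was spread over accession types. It was 173 of 1034 (16.7%) for EST probes, 29 of 93 (31.2%) for AK probes, 6 of 16 (37.5%) for BC probes and 16 of 66 (24.2%) for the rest. Among EST prefixes with at least 15 probes, AV had the highest share, 20 of 50 (40%), followed by CO with 8 of 23 (34.8%) and BB with 19 of 70 (27.1%). At the low end stood BM with 0 of 15, CN with 1 of 21 (4.76%) and AU with 1 of 20 (5%). BY, the most common prefix, had 21 of 143 (14.7%). Within the AK probes, those with an accession number above 180000 passed on all 6 arrays in 9 of 13 cases (69.2%) and those with a lower number in 20 of 80 (25%), a division chosen after the values were seen.

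Detection on all 3 arrays of a group was counted next. All 3 resting arrays detected 328 probes (27.1%, against 39% of all probes on the array) and all 3 IL-4 arrays 230 (19%, against 33.6%), so 224 of the 230 probes seen on every IL-4 array were also seen on every resting array. On every resting array and no IL-4 array 4 probes passed, and 0 did the reverse, where among all 59709 probes the counts were 151 (0.253%) and 3. With IL-4 array 2 set aside, 28 probes (2.32%, against 1.57% of all probes) passed on all 3 resting arrays and on neither of the other IL-4 arrays, and 0 passed on both of those and on no resting array, as did 4 of all probes. The IL-4 count was 353 without IL-4 array 3, and 385 when 2 of 3 arrays sufficed. Whether a probe passes depends on the array's background. On IL-4 array 3 the mark was on 0.417% of negative spots, the lowest share of any array. That array had 264 marked cDNA and EST probes, but 425 above the 95th percentile of its negative probes. The part of the background in all these counts was not tested.

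Signals covered a wide range among the 224 probes seen on all arrays. After quantile normalization their mean log2 signal over the 6 arrays ran from 5.08 to 17.78, with a median of 7.80. It was over 10 in 64 of them, over 12 in 48 and over 14 in 22. No spot of the 1209 probes was saturated on any array. A probe's signal also depends on its sequence and labelling, so an order of signals between probes is not an order of RNA amounts.

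Of the 10 probes with the highest mean signal, 6 were ESTs and 4 AK cDNAs, all 4 with accession numbers above 180000. The highest was AV131371_P1, which read 17.83, 17.82 and 17.79 (log2 signal on arrays 1, 2 and 3) in resting microglia and 17.69, 17.75 and 17.82 with IL-4. Its groups overlapped, and its log2 fold change of -0.06 (SE 0.32) was short of the limits (limma, unadjusted P = 0.86). BY652007_P1 read 17.68, 17.80 and 17.75 in resting microglia and 17.62, 17.75 and 17.49 with IL-4. BB761138_P1 read 17.38, 17.45 and 17.38 against 17.29, 17.13 and 17.89, and here the IL-4 arrays spread on both sides of the resting ones. The AK cDNA probes came next. AK216629_P1 read 16.92, 16.82 and 16.85 in resting microglia against 16.44, 16.81 and 16.96 with IL-4, and AK215547_P1 16.78, 16.35 and 16.81 against 16.68, 16.21 and 16.51. AK198651_P1 read 15.98, 16.51 and 16.08 against 15.95, 16.12 and 16.35, again with overlap. AK210533_P1 had the highest log2 fold change of the 10, 0.32 (SE 0.34), from 15.90, 16.24 and 15.87 in resting microglia to 16.44, 16.22 and 16.31 with IL-4.

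ESTs closed the group of 10. AV125227_P1 read 15.92, 16.28 and 15.96 in resting microglia and 15.78, 16.16 and 15.55 with IL-4. BY394568_P1 read 15.43, 15.87 and 15.89 against 15.12, 16.12 and 16.06. AV116296_P1 read 15.95, 16.11 and 15.94 against 15.24, 15.67 and 15.24, and its IL-4 arrays all lay below its resting arrays. Its log2 fold change of -0.62 (SE 0.34) was the lowest of the 10 and short of the limits (limma, unadjusted P = 0.115). Over the 6 arrays the SD of these 10 probes was 0.05 to 0.39 log2 units, and 0 of the 10 were past the limits.

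**Figure D2:**
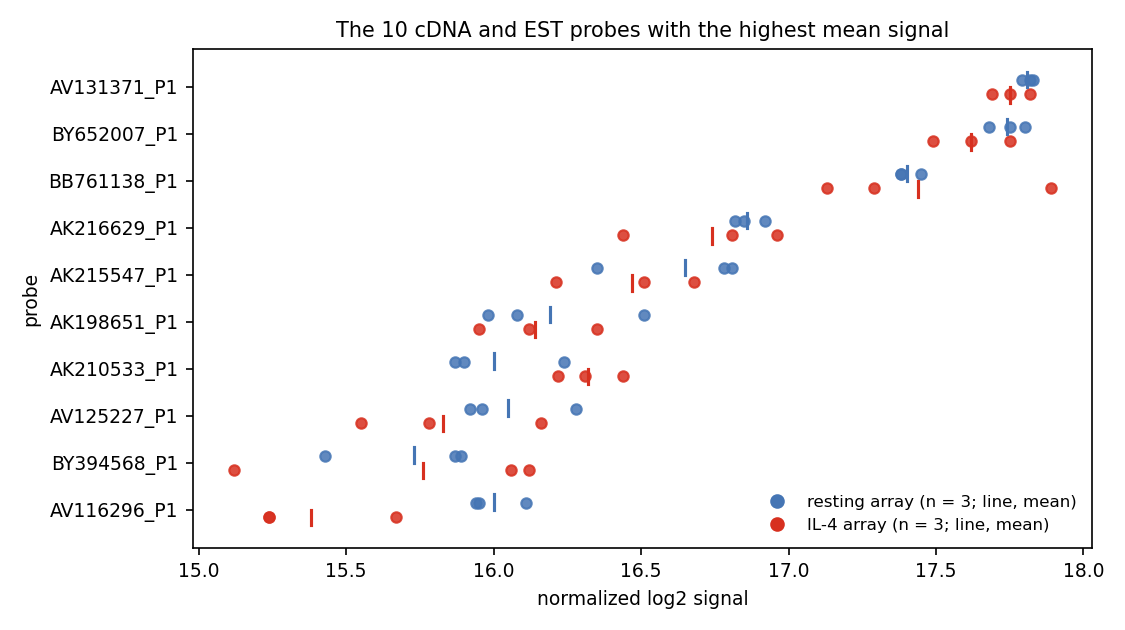
Normalized log2 signal (horizontal axis) of the 10 cDNA and EST probes with the highest mean signal, with 1 point per array, resting in blue and IL-4 in red, and a line at each group's mean (n = 3). The values lie between 15.12 and 17.89 and the groups overlap in all probes but AV116296_P1.

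The second question was which of these transcripts differed between IL-4-stimulated and resting microglia. The test asked for the mark on 3 or more arrays, which 479 of the 1209 cDNA and EST probes had (39.6%, against 55.6% of all other probes). The limits for a call, taken from the methods, were a fold change of 2 or more and a P of 0.05 or less, unadjusted, from limma. Past them were 30 of the 479 (6.26%), where the share over all 32992 tested probes was 4.94%. Of the 30, 29 were lower with IL-4 (6.05%, against 3.84% of all tested probes) and 1 was higher (0.209%, against 1.1%). The lincRNA series had called shares as high or higher, at 6.31% for lincRNA exon, 9.09% for mouse lincRNA and 12.1% for human lincRNA probes. The CUST probes had 4.85%. The called probes were 26 of 389 tested ESTs, 2 of 51 AK probes, 1 of 9 BC probes and 1 of 30 others. With p-values adjusted by Benjamini-Hochberg across the whole tested set, 0 of the 479 were past the limits with limma (smallest adjusted p = 0.893), and 0 were with the methods' t-test or with limma's intensity trend. An unadjusted P of at most 0.05 alone was reached by 32 of the 479 (6.68%, against 5.25% of all tested probes).

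The count of 30 moved with the arrays and with the processing. Without IL-4 array 1 it was 88 of 456 (19.3%, against 11.8% of all probes in that fit), without IL-4 array 3 it was 60 of 478 (12.6%, against 9.57%), and without resting array 3 it was 14 of 387 (3.62%, against 2.33%). Without IL-4 array 2 it was 34 of 402, all of them lower (8.46%, against 4.26%). A normexp background correction gave 9 calls, all lower (1.88%, against 0.818%). It adds an offset of 50 to each intensity before the log2 step, which shrinks the fold of dim probes. Within the scan that held both groups, where IL-4 array 2 alone stood against the 3 resting arrays, 155 of 454 were past the limits (34.1%, against 26.8% of all probes tested there), 141 lower and 14 higher. In that fit 38 of the 454 (8.37%, against 5.77% of all probes) were past the limits after adjustment with limma, a comparison that assumes that the lone IL-4 array varies like the resting ones, and for the other IL-4 arrays scan and treatment cannot be told apart. With scaling to each array's 75th percentile in place of quantile normalization, 23 of 27 calls were lower and 4 higher (5.64% of the cDNA and EST probes, against 3.85%).

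Most of the 479 tested probes leaned the same way as the calls. Over all 1209, without the filter on dim probes, the median log2 fold change was -0.02 and 51% of values were below 0 (49.8% over all probes). Of the 1209, 328 carried the mark on every resting array and 230 on every IL-4 array. The filter can therefore favour probes that were brighter in resting microglia, and its part in the lean of the 479 was not tested. Among the 224 probes marked on all 6 arrays, the median was -0.27 and 75% were below 0 (-0.07 and 56.2% over all such probes). The median log2 fold change of the 479 was -0.41, with quartiles of -0.87 and 0.00, and over all tested probes the median was -0.15. In 357 of the 479 (74.5%) the log2 fold change was below 0, against 59.8% of all tested probes. The groups did not overlap in 54 of the 479, with 50 lower and 4 higher with IL-4 (11.3%, against 10.9% of all tested probes). For the lower direction alone the share was 10.4%, against 6.32%. It was 8.45% for lincRNA exon, 10% for mouse lincRNA and 15.3% for human lincRNA probes. The lincRNA series on the array also had medians below that of all probes, at -0.37 for lincRNA exon probes, -0.47 for mouse lincRNA probes and -0.61 for human lincRNA probes. By accession type the median was -0.42 for ESTs, -0.33 for AK probes and -0.02 for the 9 BC probes.

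The lean was not even across the arrays. The median normalized log2 signal of the 479 probes was 6.04, 6.30 and 6.29 in resting microglia (arrays 1, 2 and 3) and 6.25, 5.38 and 5.81 with IL-4. IL-4 array 1 thus lay within the resting range, and IL-4 arrays 2 and 3 below it. For the 224 probes seen on every array the medians were 8.15, 8.11 and 7.99 against 8.11, 7.80 and 7.49, again with IL-4 arrays 2 and 3 lowest, although array 3 was then below array 2. Without IL-4 array 2 the median log2 fold change of the tested cDNA and EST probes was -0.18 and that of all probes 0.02. All other tested probes had medians of 6.62, 6.62 and 6.63 on the resting arrays and 6.60, 6.31 and 6.63 with IL-4. They were thus also lower on IL-4 array 2, but not on array 3.

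Values were more spread among the IL-4 arrays. The median SD of a tested cDNA or EST probe was 0.43 log2 units over the resting arrays and 0.96 over the IL-4 arrays, or 0.82 over IL-4 arrays 1 and 3. Over all tested probes these medians were 0.43, 0.78 and 0.61, so a wider IL-4 spread was common to the array. The IL-4 SD was the larger in 395 of the 479 (82.5%), against 71.8% of all tested probes. Over all 1209 probes, Spearman's rho between 2 resting arrays was 0.75 to 0.88, while rho of IL-4 array 2 with each of the other arrays was 0.51 to 0.56. Over the 224 probes seen on all 6 arrays, rho was 0.79 to 0.95 for every pair. These correlations are across probes of the same arrays, most of them near background, and probes are not independent replicates.

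Calls lay mostly at the dim end of the tested probes. Below a mean log2 signal of 4 there were 3 calls among 28 tested probes, a smaller share than the 13.3% of all other tested probes, and between 4 and 5 there were 11 of 127 (8.66%, against 8.95%). Between 5 and 6 there were 8 of 95 (8.42%, against 6.69%), and between 6 and 8 there were 7 of 122 (5.74%, against 3.32%). Between 8 and 10 there was 1 of 43 (2.33%, against 1.25%), and over 10 there were 0 of 64 (against 1.33%). The higher share of calls among dim probes was thus common to all probes on the array. The median log2 fold change of the cDNA and EST probes was -0.67, -0.52 and -0.47 in the ranges 4 to 5, 5 to 6 and 6 to 8, where that of all other probes was -0.32, -0.35 and -0.18. Over 10 it was -0.14, against 0.03. In the dimmest range it was -0.04, against -0.39, so the order was the other way there. Of the probes on 3 to 5 arrays, 24 of 255 were past the limits (9.41%, against 9.03% of all such probes). Of those on all 6, 6 of 224 were (2.68%, against 1.89%).

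**Figure D3:**
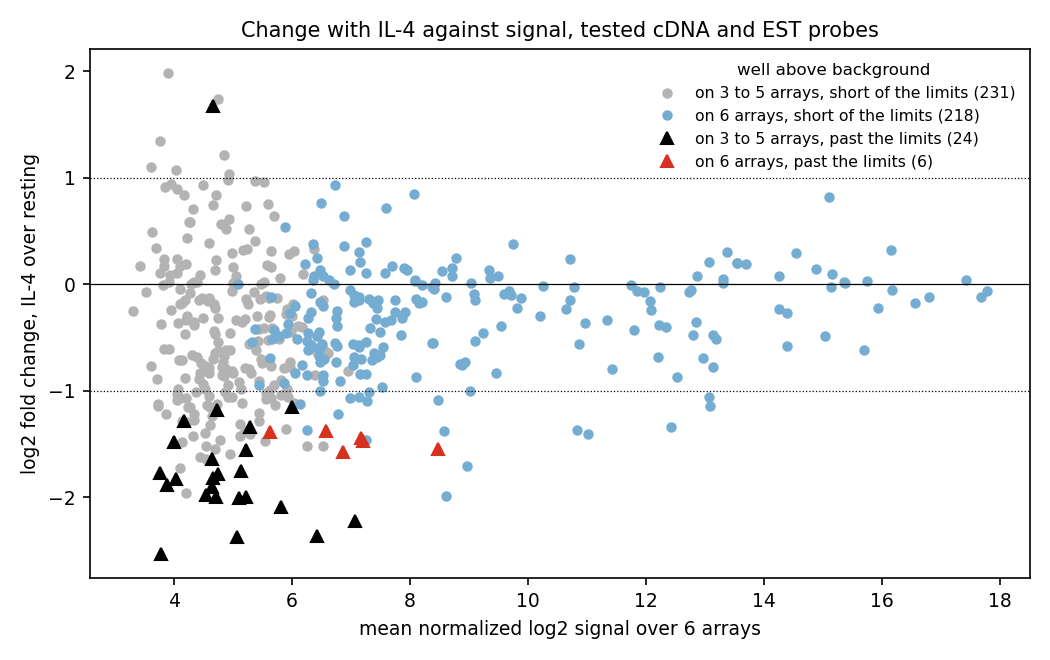
Log2 fold change, IL-4 over resting (vertical axis), against the mean normalized log2 signal over 6 arrays (horizontal axis), with 1 point per tested cDNA or EST probe (479), dotted lines at a log2 fold change of 1 and -1, triangles for the 30 probes past the limits and colour for detection on all 6 arrays. All but 1 of the triangles lie below 0, and none lies at a mean signal over 10.

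Of the 29 lower probes, the log2 fold change ran from -2.53 to -1.15 with a median of -1.77. Of these, 29, 25 and 29 carried the mark on resting arrays 1, 2 and 3, and 6, 28 and 10 carried it in the same order on the IL-4 arrays. In 28 of the 29 all IL-4 values lay below all resting values. The calls were made on these same values, so this separation is no further support for a fall. In 18 of the 29, IL-4 array 2 passed the mark for well above background and arrays 1 and 3 did not. Above the 95th percentile of the negative probes on that array stood 5 of the 29.

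The 2 largest falls among probes seen on every resting array were ESTs. AI426913_P1 had a log2 signal of 4.35, 5.85 and 4.96 in resting microglia and of 2.54, 2.72 and 2.32 with IL-4. Its processed signals before normalization were 21.7, 32.0 and 26.1 against 4.64, 50 and 6.81, so IL-4 array 2 was the highest array before normalization, although below that array's negative-probe median of 71.2. The log2 fold change was -2.53 (SE 0.47; limma, unadjusted P = 0.00102, adjusted p = 0.893). The probe was well above background on 3 resting arrays and on IL-4 array 2 alone among the IL-4 arrays. With the dim IL-4 arrays set at the lowest signal that passed there, or at the probe's own if higher, it was 1.56-fold lower, and without IL-4 array 2 that bound gave no fall.

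BB257274_P1 read 6.07, 6.52 and 6.17 in resting microglia and 3.57, 3.31 and 4.76 with IL-4. The groups did not overlap, which was required for a fall to be named. Its processed signals were 77.6, 54.1 and 62.5 against 7.07, 75.9 and 17.5. The value on IL-4 array 2 lay above those on resting arrays 2 and 3. It was near that array's negative-probe median of 71.2 and below the 95th percentile of its negative probes, 210.6. The log2 fold change was -2.37 (SE 0.48; limma, unadjusted P = 0.00166, adjusted p = 0.893). It too was well above background on 3 resting arrays and on IL-4 array 2 alone among the IL-4 arrays, and by the same bound it was 3.13-fold lower, or at least 2.00-fold without IL-4 array 2. With the normexp correction the log2 fold change was -0.46 for AI426913_P1 and -0.75 for BB257274_P1, both short of the limits. The offset of 50 in that correction lies above every resting processed signal of AI426913_P1 and near those of BB257274_P1. That setting therefore cannot decide whether probes this dim fell by the limit.

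The 1 probe that was higher with IL-4, also an EST, was AW124219_P1, named here after its values were seen because it was the sole rise. It read 3.84, 3.67 and 3.97 in resting microglia and 4.99, 6.70 and 4.79 with IL-4. Processed signals were 14.7, 5.78 and 13.4 against 22.7, 246.8 and 17.9, and the value on IL-4 array 2 stood above that array's 95th percentile of negative probes, 210.6. The log2 fold change was 1.67 (SE 0.56; limma, unadjusted P = 0.0211, adjusted p = 0.893). Among the IL-4 arrays it was well above background on array 2 alone. It was short of the limits without resting array 2 (log2 fold change 1.59, unadjusted P = 0.0614 with limma) and with the methods' t-test. With the normexp correction, whose offset shrinks the fold of dim probes, it was also short of them (0.57). By the bound used for the falls it was 2.39-fold higher, or 1.57-fold without IL-4 array 2, when it passed on no IL-4 array and was not tested.

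**Figure D4:**
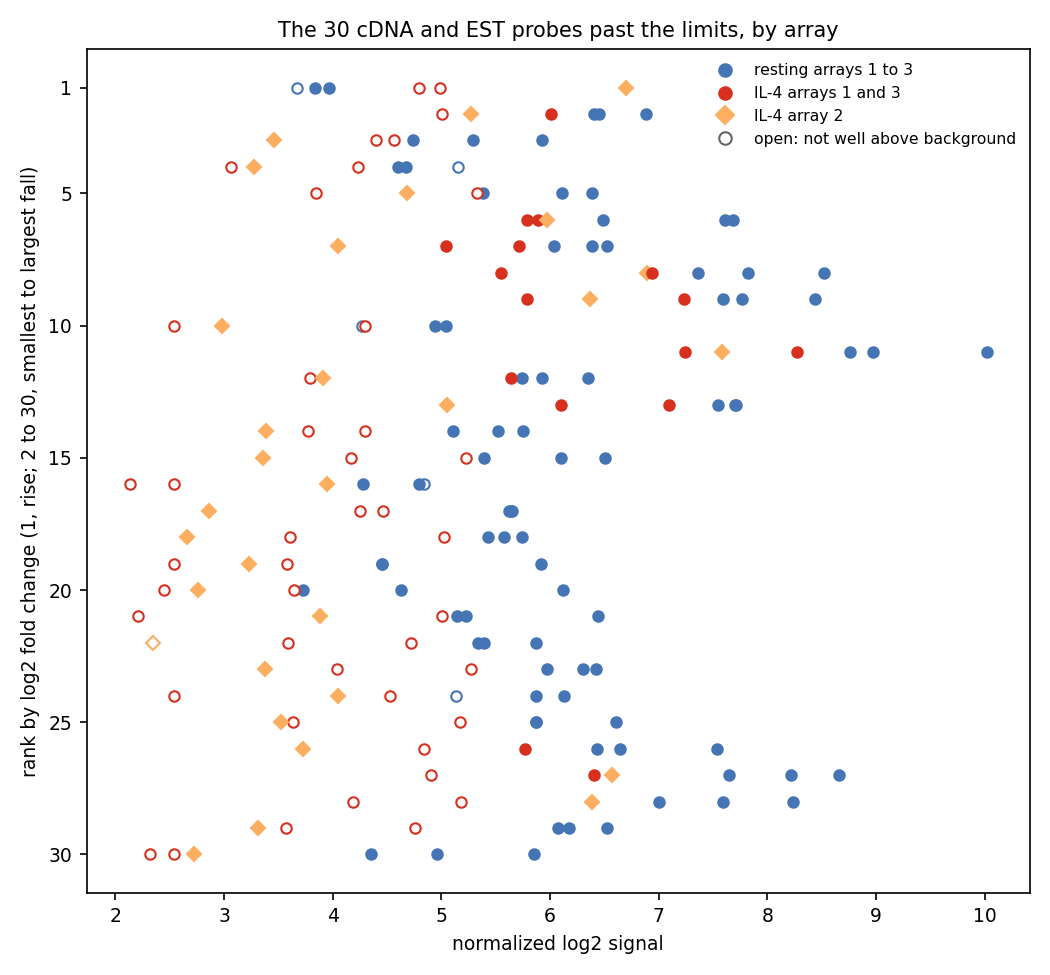
Normalized log2 signal (horizontal axis) on each array for the 30 cDNA and EST probes past the limits, ranked by log2 fold change from the 1 rise at rank 1 to the largest fall at rank 30 (vertical axis), with resting arrays in blue, IL-4 arrays 1 and 3 in red, IL-4 array 2 as orange diamonds, and open symbols where the probe was not well above background. In 28 of the 29 falls every IL-4 point lies left of every resting point, though the calls were made on these same values. Most points of IL-4 arrays 1 and 3 are open.

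Among the 29 lower probes were 6, 5 ESTs and 1 AK cDNA, that carried the mark on all 6 arrays. On IL-4 array 2, where most negative spots carried it too, 3 of the 6 were above the 95th percentile of the negative probes, and the same 3 were above it on every array. Their log2 fold changes ran from -1.57 to -1.38, with an unadjusted P of 0.0159 to 0.0313 from limma and an adjusted p of at least 0.893. The groups did not overlap in any of the 6, but these too were called on the same values. The brightest, one of these 3, read 8.97, 8.76 and 10.02 in resting microglia and 7.24, 7.58 and 8.27 with IL-4 (log2 fold change -1.55, SE 0.49). The one with the smallest P, not among the 3, read 7.68, 7.61 and 6.49 against 5.89, 5.97 and 5.79 (log2 fold change -1.38, SE 0.44), with IL-4 arrays close together. The one with the largest fall, likewise not among them, read 7.55, 7.70 and 7.71 against 6.10, 5.05 and 7.09 (log2 fold change -1.57, SE 0.55), and there IL-4 array 2 was the lowest. Larger fitted falls occurred in probes that missed the mark on some IL-4 arrays, such as one that read 7.65, 8.66 and 8.22 against 4.90, 6.57 and 6.40 and was not well above background on IL-4 array 1.

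Which probes were called also depended on the setting. Of the 30, 10 were called in each of the 6 fits that left out 1 array, 16 with scaling to the 75th percentile, 4 with the normexp correction, and 0 under every setting tried. A probe not tested counted here as not called. Only 6 of the 30 were tested with the filter for all 6 arrays. Without resting array 1 or resting array 3 it was 24, and without IL-4 array 2 it was 25. The authors' table of log2 values held 409 of the 1209 probes, all of them well above background on at least 3 arrays. Fitted in the same way, it gave 26 calls, all lower (6.36%, against 5.35% of its probes), and these 26 were all of the 30 that it held. The other settings gave a share of called cDNA and EST probes of 5.03% without resting array 1 (2.96% over all probes tested), 4.25% without resting array 2 (3.16%), 3.57% with a filter for all 6 arrays (2.6%), 4.96% without a filter on dim probes (5.23%) and 6.26% with outlier spots kept (4.9%). It was 8.35% with the replicate number as a block (4.85%), 33.8% with a block for the scan (26.9%), which again leaves IL-4 array 2 as the sole contrast to resting microglia, 3.76% with the methods' t-test (2.53%) and 6.05% with an intensity trend (3.92%). The share was above that of all probes in 16 of the 17 alternatives, the exception being the one without a filter on dim probes. Many of these fits share their arrays. A share above that of all probes was not particular to these probes, since the lincRNA series had 6.31% to 12.1% in the fit as reported. Without that filter 43 calls were lower and 17 higher, so 28.3% of the calls were higher, against 38.3% over all probes. The median of the cDNA and EST probes was below that of all probes in each setting, by 0.02 log2 units without a filter on dim probes and by up to 0.41 without IL-4 array 1.

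**Figure D5:**
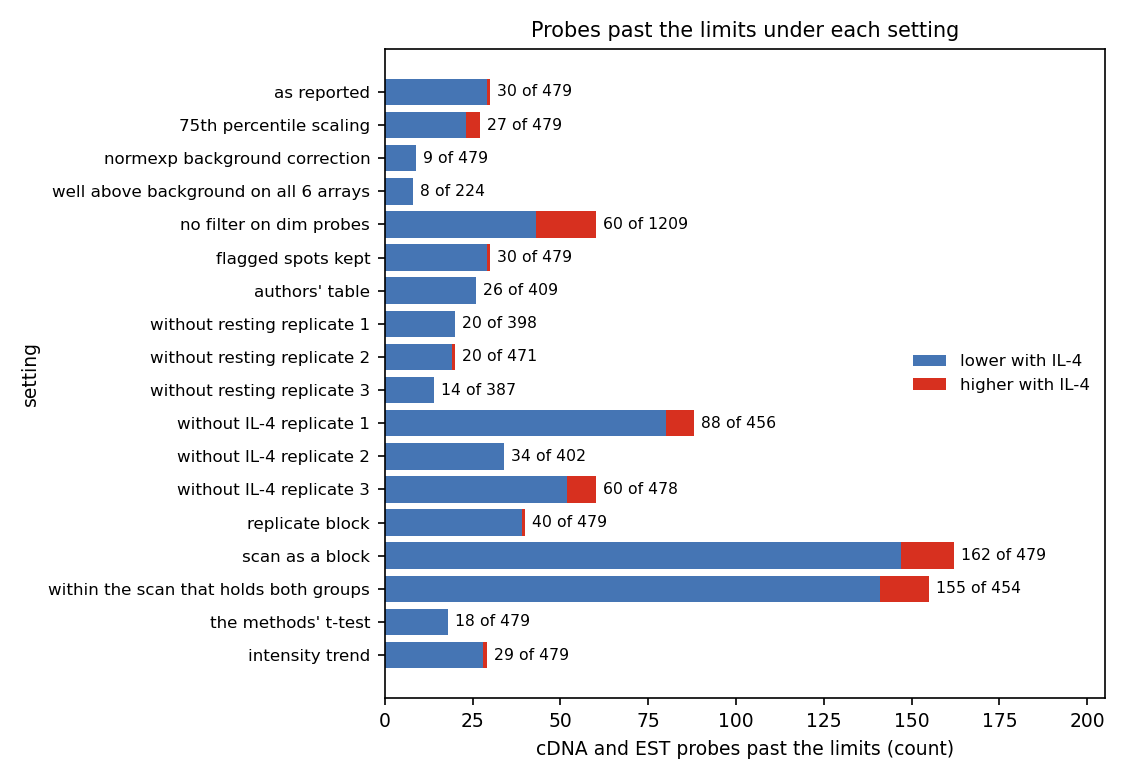
Number of cDNA and EST probes past the limits (horizontal axis, from 0) under each setting (vertical axis), lower with IL-4 in blue and higher in red, with the count and the number tested beside each bar. Lower calls outnumber higher calls in every setting, while the count runs from 8 to 162.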

How the data were processed

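The authors deposited the Feature Extraction (version 10.7.3.1) output of each 1-colour Cy3 array, from which the processed signal, a background-corrected intensity, and the mark for well above background were used. They also deposited a table of quantile normalized log2 values for 14055 probes, made in GeneSpring GX per the methods. Control spots, negative probes and outlier spots (9 of the cDNA and EST probes over 6 arrays) were left out. Log2 processed signals were quantile normalized and fitted in limma (version 3.58.1) in R (version 4.3.3), with treatment alone in the model, over all 32992 probes marked well above background on 3 or more arrays, with 2 or more unflagged values per group. The limits, a fold change of at least 2 and P of at most 0.05, were those of the methods. Benjamini-Hochberg adjustment ran over all tested probes. On IL-4 array 1, 525 of the 1209 probes shared 1 lowest value, 4.64, and have no order there.

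The rule for the members reads probe names only, but this set of probes, the gene lists and the naming rule were chosen with earlier results of these data known. The rule named the 10 probes with the highest mean signal among those marked on all 6 arrays, and, of the called probes whose groups did not overlap and which passed on all 3 arrays of a group, the 2 largest falls and rises (25 lower and 0 higher met it). A fold bound acts on the group with the lower mean. It sets each array of that group that did not pass at the lowest signal well above background there, or the probe's own if higher. Arrays of the other group keep their own values, passed or not. Alternatives were another scaling, normexp (offset 50), other filters, outlier spots kept, the authors' table, each array left out, scan or replicate number as a block, an intensity trend and the methods' t-test. The fits were tested on simulated data. Figures were drawn with matplotlib (version 3.10.9).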

Additional observations from a re-analysis of the deposited data

How the results depend on the processing

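The count of 30 cDNA and EST probes past the limits was within 1.5 times of itself under 8 of 17 alternatives. It was 9 with the normexp correction, 8 with a filter for all 6 arrays, 60 without a filter on dim probes, 162 with the scan as a block and 155 within the scan that held both groups, both resting on IL-4 array 2 alone, 18 with the methods' t-test, and 14 to 88 when 1 array was left out. Scaling to the 75th percentile made 14.8% of the calls higher, against 3.33%, and over all tested probes 40.9%, against 22.3%. Without a filter on dim probes 28.3% of the calls were higher, and over all probes 38.3%. After Benjamini-Hochberg adjustment the count was 0 under all alternatives but the fit within the scan, with 38 (8.37% of 454 tested, against 5.77% of all probes), which rests on IL-4 array 2 alone and assumes that it varies like the resting arrays. The median log2 fold change of -0.41 was -0.02 without a filter on dim probes and otherwise ran from -0.67 to -0.16. It was -0.62 to -0.18 when 1 array was left out. The count of probes detected throughout the IL-4 group, 230, was 385 for at least 2 of 3 arrays, 167 above the 95th percentile of negative probes, and 232 to 353 when 1 array was left out. With the replicate number as a block 40 probes were past the limits (1 higher, 39 lower) and 0 after adjustment. Deviations of same-numbered arrays from their group means correlated at -0.22, 0.14 and -0.09 over 32992 probes. With 3 arrays per group, and IL-4 arrays that differed in background and scan, these values cannot decide whether the numbers pair the samples. The causes of these changes were not tested, although the offset of the normexp correction shrinks the fold of dim probes by construction. The comparison of probes of the same accession was not run, since each accession had 1 probe. Signal over background was the main limit: 730 of the 1209 probes were not tested.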
